A study of Danio rerio with 6 samples.

Results

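In 48 hpf zebrafish embryos, 1199 of 23959 WT CTCF sites (5.0%) carried a CTCF peak in exactly 1 of the 2 *ctcf*-/- peak lists. These single-list sites were chosen by peak overlap. A WT site is a region of merged overlapping WT 48 hpf peaks that holds a peak of each WT replicate, and it is a single-list site when it is overlapped by at least 1 bp by a peak of *ctcf*-/- replicate 1 or of *ctcf*-/- replicate 2, but not of both. They comprise 553 sites with a peak in *ctcf*-/- replicate 1 only and 646 with a peak in *ctcf*-/- replicate 2 only. They were set against 800 sites with a peak in both *ctcf*-/- lists and 21960 sites with a peak in neither. Because the *ctcf*-/- lists chose the sites, their *ctcf*-/- values are given below as a description. The WT 48 hpf and WT 24 hpf enrichment values took no part in telling these classes apart, although every site was required to have a peak of each WT 48 hpf replicate. The extent of the WT 48 hpf region did take part, since a wider region is easier to overlap.

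CTCF is a zinc-finger protein that binds DNA and halts cohesin while it extrudes chromatin loops, and its binding sites are enriched at the borders of topologically associating domains. Sites differ in how strongly and how long they hold the protein. In a zygotic mutant zebrafish the mother supplies *ctcf* mRNA and protein to the egg, so CTCF disappears gradually during early development.

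The libraries are CTCF ChIPmentation from whole zebrafish embryos. In this variant of ChIP-seq the sequencing adapters are put into the precipitated chromatin by the Tn5 transposase. The groups are *ctcf*-/- embryos at 48 hpf (hours post fertilization), WT embryos at 48 hpf and WT embryos at 24 hpf, with 2 replicates in each. The *ctcf*-/- embryos are homozygous zygotic mutants with a CRISPR/Cas9 deletion in *ctcf* that brings in a premature stop codon, they are offspring of heterozygous carriers, and the WT embryos carry no such deletion. The antibody was raised against a C-terminal fragment of zebrafish CTCF. A whole embryo mixes all tissues, so fewer cells that hold CTCF at a site and less CTCF at that site in each cell cannot be told apart. The labels do not say whether the replicates came from separate clutches of embryos.

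The depth of the libraries was not equal. The lists hold 2717 and 1706 peaks in *ctcf*-/- replicates 1 and 2, against 31014 and 33130 peaks in WT 48 hpf replicates 1 and 2 and 67512 and 26350 peaks in WT 24 hpf replicates 1 and 2. The lists give no read totals, and the genome background of each library, the lowest background that MACS2 used for any of its peaks, served as a relative depth. It was 8.50 tags per 10 kb in *ctcf*-/- replicate 1 and at most 4.00 tags per 10 kb in *ctcf*-/- replicate 2. In WT 48 hpf replicates 1 and 2 it was 19.8 and 17.9 tags per 10 kb, and in WT 24 hpf replicates 1 and 2 it was 44.0 and 12.4 tags per 10 kb. The *ctcf*-/- libraries were therefore the shallowest, and a site with no peak in a *ctcf*-/- list is one where none was detected at this depth.

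The *ctcf*-/- lists overlapped the WT sites to different extents. In *ctcf*-/- replicate 1, 1360 of 2717 peaks (50.1%) lay on a WT site, 167 lay on a peak of only 1 WT 48 hpf list and 1190 overlapped no WT 48 hpf peak. In *ctcf*-/- replicate 2, 1457 of 1706 peaks (85.4%) lay on a WT site, 49 on a peak of only 1 WT 48 hpf list and 200 on none. The peaks of replicate 1 reached 1353 WT sites, of which 40.9% were single-list sites, and those of replicate 2 reached 1446, of which 44.7% were single-list sites. At 798 of the 800 sites with a peak in both lists, the 2 *ctcf*-/- peaks overlapped each other, and at the other two they lay apart within the same WT site.

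The *ctcf*-/- peaks at single-list sites were lower than those at sites of both lists and lay near the middle of their own lists, at a median percentile of fold enrichment of 54.9 in *ctcf*-/- replicate 1 and 46.3 in *ctcf*-/- replicate 2. For each peak, the number of fragments piled up at the summit and the local background were recovered from the fold enrichment and the −log10 p. Single-list peaks had a median of 9 fragments at the summit in both replicates (quartiles 8 and 12 in each). At sites with a peak in both lists the median was 14 fragments in *ctcf*-/- replicate 1 and 16 in *ctcf*-/- replicate 2. Fold enrichment is the pileup plus 1 over the local background plus 1, so it is lowered most where the background is low. Its median was 7.42 at replicate 1-only sites and 8.88 in the same list at sites of both lists. In replicate 2 these medians were 8.25 at replicate 2-only sites and 10.1 at sites of both lists. The −log10 q of the peaks was below 10 at 400 of the 553 replicate 1-only sites (72.3%) and at 387 of the 646 replicate 2-only sites (59.9%), against 258 (32.2%) and 194 (24.2%) of the 800 sites of both lists. A −log10 q below 5, close to the limit of the lists, was found at 26 replicate 1-only sites (4.70%) and 22 replicate 2-only sites (3.41%). At the sites of both lists it was found at 9 (1.12%) in each *ctcf*-/- list.

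Where the local background was under 20 times the genome background, the share of sites also in the other *ctcf*-/- list rose with the pileup. Among WT sites with a replicate 1 peak whose local background was under 20 times the genome background, 19.2% of those with up to 6 fragments were also in the replicate 2 list. This share was 30.3% at 7 to 8 fragments, 46.0% at 9 to 10, 65.5% at 11 to 13, 81.2% at 14 to 20 and 96.0% at 21 to 40. For replicate 2 peaks, the share also in the replicate 1 list was 22.7% at up to 6 fragments, 28.3% at 7 to 8, 38.2% at 9 to 10, 50.2% at 11 to 13, 68.5% at 14 to 20 and 93.5% at 21 to 40. Most single-list sites thus lay where a *ctcf*-/- summit held only a few fragments. With 21 fragments or more, 4 of 111 such sites of replicate 1 and 10 of 150 of replicate 2 were single-list sites. Replicate 1 differed where the local background was at least 20 times the genome background. All its summits there held more than 20 fragments, yet 51 of 201 sites were single-list sites. In replicate 2, 4 of 161 sites of such background were single-list sites.

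**Figure D1:**
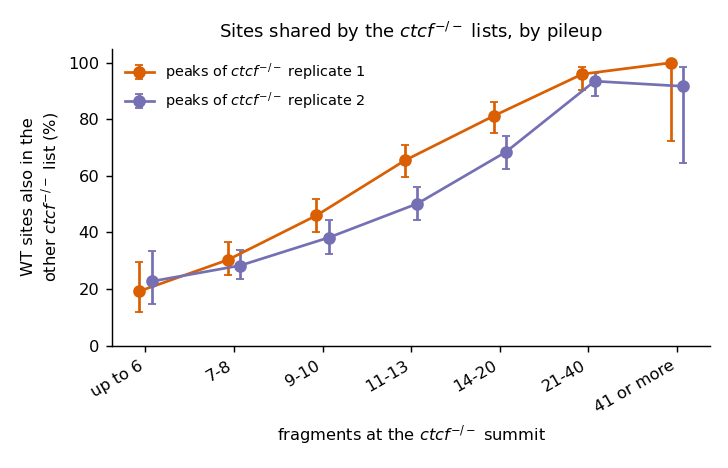
Percentage of WT 48 hpf sites with a peak of one *ctcf*-/- list that also have a peak of the other, by the number of fragments at the *ctcf*-/- summit, for peaks with a local background under 20 times the genome background. Points are percentages with 95% Wilson intervals, which cover counting error only, and the share climbs in both lists, from 19.2% to 96.0% for replicate 1 and from 22.7% to 93.5% for replicate 2 between up to 6 and 21 to 40 fragments.

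The single-list sites were strongly bound in WT embryos. As a measure of WT strength, the fold enrichment of each site was turned into a percentile of the peaks in the same WT list. Single-list sites had a median percentile of 86.7 in WT replicate 1 and 87.6 in WT replicate 2 (quartiles 70.2 to 94.7 and 72.5 to 94.7). Sites of neither list had medians of 58.8 and 61.3 in WT replicates 1 and 2, and sites of both lists had medians of 92.1 and 92.8. The single-list sites were thus 27.9 and 26.3 percentile points above the sites of neither list in WT replicates 1 and 2, and differed by −5.46 and −5.14 points from the sites of both lists. Both gaps were larger than the difference between the WT replicates within a class. Single sites of the classes overlapped widely, with quartiles of 74.7 and 96.9 at sites of both lists in WT replicate 1. In WT replicates 1 and 2, the median fold enrichment was 17.6 and 17.5 at single-list sites, 20.1 and 19.8 at sites of both lists, and 11 and 11.1 at sites of neither list. The WT summits held a median of 49 and 46 fragments at single-list sites, 73 and 65 at sites of both lists and 20 and 20 at sites of neither list in WT replicates 1 and 2. With sites as the units and 2 libraries per group, no test was made. The gap between single-list sites and sites of both lists turned round, to 1.41 and 0.893 points in WT replicates 1 and 2, when an overlap of at least 50% of both the *ctcf*-/- peak and the WT site was required, and was −2.00 and −2.09 points among peaks of a −log10 q of at least 10.

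**Figure D2:**
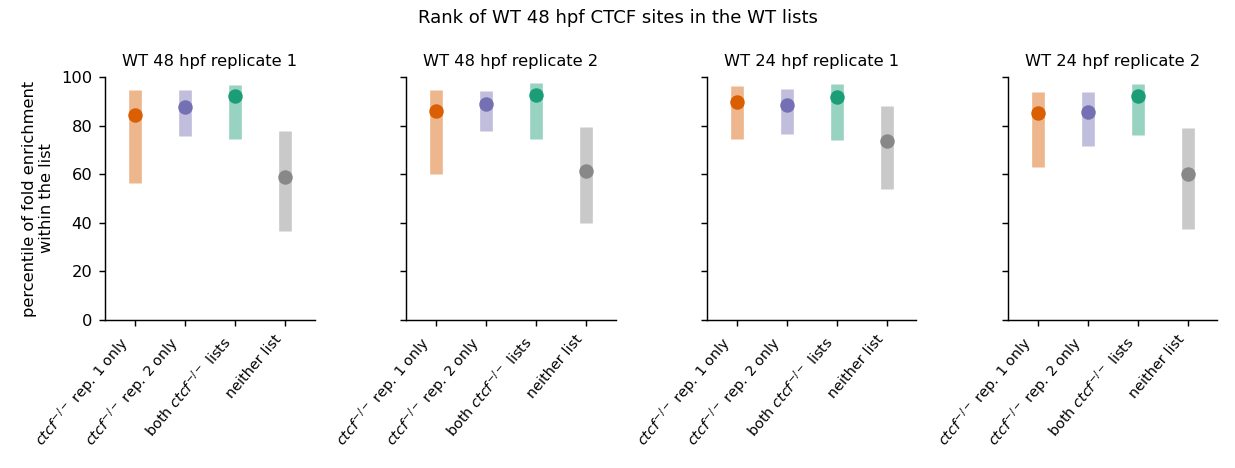
Percentile of fold enrichment within each WT list for WT 48 hpf sites with a peak in *ctcf*-/- replicate 1 only, in *ctcf*-/- replicate 2 only, in both *ctcf*-/- lists or in neither. Points are medians and bars run from the first to the third quartile over sites, and in each of the 4 WT lists both single-list kinds have medians from 84.4 to 89.6, above the 58.8 to 73.8 of sites of neither list.

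The spread among single-list sites was wide, with percentiles in WT replicate 1 between 0.0306 and 99.9. When all WT sites were divided into 10 deciles by their mean percentile over the WT 48 hpf replicates, decile 10, the strongest, held 416 single-list sites, 17.4% of its sites, and decile 9 held 257 (10.7%). The shares fell to 0.71% in decile 2 and stood at 3.13% in the weakest. Deciles 9 and 10 together held 673 single-list sites (56.1%), 537 sites of both lists (67.1%) and 3582 sites of neither list (16.3%). Both kinds of retained site were about equally frequent at the top, since 17.1% of the strongest decile had a peak in both lists. Lower down, single-list sites outnumbered sites of both lists in all but the weakest decile: they were 50.4% of the sites with any *ctcf*-/- peak in the strongest decile, 81.2% in decile 4 and 41.2% in the weakest. Even in the strongest decile, 65.6% of the sites had no *ctcf*-/- peak.

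**Figure D3:**
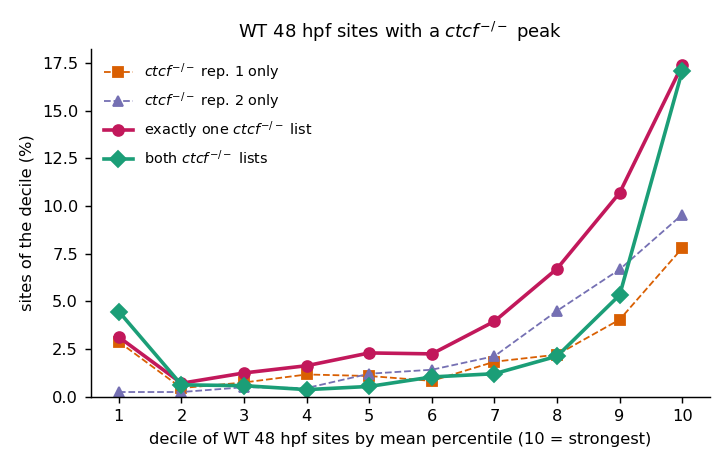
Percentage of WT 48 hpf sites in each decile of WT strength that have a peak in exactly one *ctcf*-/- list, in replicate 1 only, in replicate 2 only, or in both lists. Single-list sites reach 17.4% in decile 10, beside 17.1% for sites of both lists, and the weakest decile has 3.13% and 4.47%, most of the single-list sites there being in replicate 1 only.

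At single-list sites, the *ctcf*-/- peak followed WT strength only loosely. Away from high *ctcf*-/- local background, this was similar at sites of both lists. The rule selected on the *ctcf*-/- peaks, which limits the range of their values here. Across the 553 replicate 1-only sites, Spearman's rho between the *ctcf*-/- percentile and the WT percentile was 0.447 and 0.434 for WT replicates 1 and 2, and 0.265 and 0.249 among the 502 sites without a high *ctcf*-/- local background. Across the 646 replicate 2-only sites rho was 0.155 and 0.172, and 0.157 and 0.174 among the 642 without a high *ctcf*-/- local background. Across the sites of both lists it was 0.486 and 0.489 for *ctcf*-/- replicate 1, and 0.470 and 0.455 for *ctcf*-/- replicate 2. Without high *ctcf*-/- local background these values were 0.232 and 0.240, and 0.188 and 0.161. The percentiles in the 2 WT replicates themselves correlated at 0.897 across single-list sites. These values describe sites of the same libraries, which share depth and local background, and sites are not independent replicates.

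Both kinds of single-list site had similar median WT strength once local background was considered, but replicate 1-only sites kept more weak sites. Replicate 1-only sites had median percentiles of 84.4 and 86.0 in WT replicates 1 and 2, and replicate 2-only sites had 87.6 and 88.8, a difference of −3.27 and −2.81 points. The lower quartiles lay further apart, at 56.3 for replicate 1-only and 75.9 for replicate 2-only sites in WT replicate 1. The difference was −0.776 and −0.615 points among sites whose local background in WT was under 20 times the genome background. Among sites with a *ctcf*-/- local background under that limit, 19 of 502 replicate 1-only sites lay in the weakest WT decile. Of the replicate 2-only sites, 3 of 642 did. With the peaks of WT replicate 1 or of WT replicate 2 alone as the sites, the difference in medians was −9.56 and −5.31 points in WT replicates 1 and 2.

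A small group of replicate 1-only sites stood apart from the rest by its local background. In their own *ctcf*-/- list, 51 of the 553 had a local background at least 20 times the genome background, between 34.8 and 257 times with a median of 124. Their *ctcf*-/- summits held a median of 62 fragments at a fold enrichment of 3.64, while the other 502 had 9 fragments at 7.57. In WT replicates 1 and 2 the 51 sites had median percentiles of 0.369 and 0.581, against 87.0 and 88.3 for the other 502, and 50 of them lay in decile 1 of WT strength, the weakest. A WT local background at least 20 times the genome background was found at 50 of the 51, so this feature was present in WT embryos as well. They lay on 16 of the 25 chromosomes and on unplaced scaffolds, and 50 of the 51 lay within 10 kb of another site with a *ctcf*-/- peak, against 26 of the other 502. These are peaks of many fragments in regions of many fragments, and the label of retained CTCF binding rests there on a small enrichment over the surroundings. Among the 646 replicate 2-only sites, 4 passed the same background limit and were like the 51 in some traits only. Of these 4, 3 lay in the weakest WT decile and 3 lay within 10 kb of another site with a *ctcf*-/- peak. Their median percentiles were 10.3 and 16.5 in WT replicates 1 and 2. They differed from the 51 in a median fold enrichment of 8.50 in *ctcf*-/- replicate 2. A high WT local background was found at only 2, and all 4 had a 24 hpf site. Background multiples in *ctcf*-/- replicate 2 are lower bounds because no peak of that list reached its genome background. High *ctcf*-/- background was not particular to single-list sites. Of the 800 sites of both lists, 150 (18.8%) had it in *ctcf*-/- replicate 1 and 157 (19.6%) in *ctcf*-/- replicate 2, against 9.22% of replicate 1-only sites in replicate 1.

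**Figure D4:**
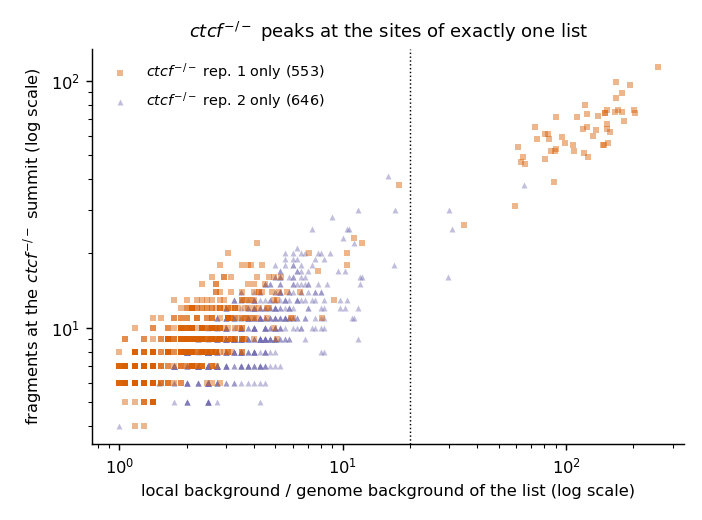
Each point is the *ctcf*-/- peak at a single-list site, 553 in replicate 1 (squares) and 646 in replicate 2 (triangles), with the local background as a multiple of the genome background of its list on a log x axis and the fragments at the summit on a log y axis. The dotted line marks 20 times, with 51 replicate 1-only and 4 replicate 2-only sites to its right and most sites to its left at 8 to 12 fragments.

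Counted in the WT 48 hpf lists, high local background was found in at least 1 replicate at 68 single-list sites (5.67%), 151 sites of both lists (18.9%) and 78 sites of neither list (0.355%), against 1.24% of all WT sites. It was found at 57 replicate 1-only sites (10.3%) and 11 replicate 2-only sites (1.70%). Without sites of high WT background, 1131 single-list sites remained, 4.78% of 23662, with median percentiles of 87.6 and 88.8 in WT replicates 1 and 2. Sites of both lists then had medians of 94.2 and 95, and sites of neither list had 58.8 and 61.4.

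Most single-list sites also had a CTCF site in WT embryos at 24 hpf. A WT 24 hpf site of both replicates overlapped 1102 of the 1199 (91.9%, 95% Wilson interval 90.2 to 93.3), 766 of the 800 sites of both lists (95.8%, 94.1 to 96.9) and 16094 of the 21960 sites of neither list (73.3%, 72.7 to 73.9). Over all WT 48 hpf sites the share was 75.0%. It was 97.5% for replicate 2-only sites (630 of 646) and 85.4% for replicate 1-only sites (472 of 553). Among the 51 replicate 1-only sites of high *ctcf*-/- background 16 had a 24 hpf site (31.4%), against 456 of the other 502 (90.8%). Only 5 single-list sites, all of them in replicate 1 only, had no peak in either 24 hpf list, or 0.417% against 3.71% of sites of neither list. The intervals cover counting error only, since sites in one pair of libraries are not replicates, and the 24 hpf replicates differed in depth. A peak in WT 24 hpf replicate 1, the deeper library, overlapped 99.3% of single-list sites and 94.1% of sites of neither list.

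The rank of single-list sites at 24 hpf was also high. Where listed, they had a median percentile of 88.9 in WT 24 hpf replicate 1 and 85.6 in replicate 2, sites of both lists had 91.8 and 92.2, and sites of neither list had 73.8 and 60.3. Sites of higher WT 48 hpf strength more often had a 24 hpf site, so the classes were also set side by side within deciles of WT 48 hpf strength. In the strongest decile 100% of single-list sites and 99.0% of sites of neither list had a 24 hpf site. In decile 6 the shares were 96.3% (87.5 to 99.0) and 82.7% (81.1 to 84.2), and in decile 5 they were 85.5% (73.8 to 92.4) and 74.4% (72.6 to 76.1). The share was higher at single-list sites in deciles 2 to 10, and the 95% intervals overlapped in all of these but decile 6. The intervals cover counting error only and sites are not replicates, so no decile can be singled out by them. The weakest decile, which holds 50 of the 51 sites of high *ctcf*-/- background, had 34.7% for single-list sites, 75.7% for sites of both lists and 38.9% for sites of neither list.

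**Figure D5:**
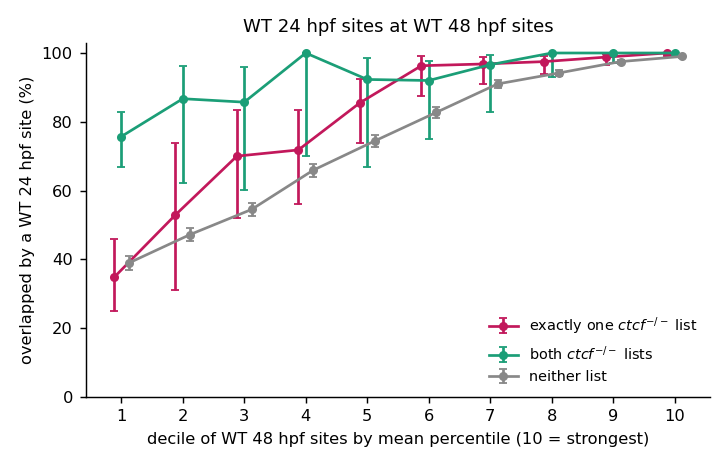
Percentage of WT 48 hpf sites overlapped by a WT 24 hpf site, by decile of WT 48 hpf strength, for sites of exactly one *ctcf*-/- list, of both and of neither, with 95% Wilson intervals that cover counting error only. From decile 2 upwards single-list sites have a higher percentage than sites of neither list, 96.3% against 82.7% in decile 6, and in the weakest decile they have 34.7% against 38.9%.

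The peaks at single-list sites were placed and shaped between the other classes. The WT region had a median width of 399 bp at single-list sites, 439 bp at sites of both lists and 310 bp at sites of neither list. Width is not independent of the overlap rule, since a wider region is easier to overlap. The summits of the WT replicates lay a median of 14 bp apart at single-list sites, 11 bp at sites of both lists and 23 bp at sites of neither list. The *ctcf*-/- summit lay a median of 30.5 bp from the mean WT summit at replicate 1-only sites and 23.0 bp at replicate 2-only sites. At sites of both lists these distances were 21.2 bp for *ctcf*-/- replicate 1 and 19.0 bp for *ctcf*-/- replicate 2. Single-list *ctcf*-/- peaks had their summits close to the WT summit at most sites. The overlap rule limits this distance, so it describes the chosen sites only.

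Along the genome, single-list sites had WT neighbours about as often as all WT sites did. Another WT 48 hpf site lay less than 30 kb away at 877 single-list sites (73.1%), 76.6% of sites of both lists and 71.3% of sites of neither list, against 71.6% of all. Another single-list site lay less than 30 kb away at 121 of them (10.1%), against 22.0% of sites of both lists, 6.60% of sites of neither list and 7.29% of all sites. The share was 13.2% for replicate 1-only sites and 7.43% for replicate 2-only sites. Another site with any *ctcf*-/- peak lay less than 30 kb away at 50 of the 51 replicate 1-only sites of high *ctcf*-/- background. It did so at 59 of the other 502 and at 75 of the 642 replicate 2-only sites without such background, against 10.7% of all sites. Unplaced scaffolds held 47 single-list sites (3.92%), 5.38% of sites of both lists and 1.71% of sites of neither list, against 1.94% of all. By chromosome, single-list sites made up 3.64% to 7.39% of the WT sites, with a median of 4.77% over chromosomes 1 to 25 and the highest share, 62 of 839 sites, on chromosome 4.

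The balance between the replicates varied among chromosomes, on few sites each, from 32 on chromosome 18 to 74 on chromosome 3. No counting error was computed for it, so its spread cannot be compared with that of the total. Replicate 1-only sites made up between 25% and 70.5% of the single-list sites of a chromosome, with a median of 45.7%. Chromosome 18 had 8 replicate 1-only and 24 replicate 2-only sites, and chromosome 1 had 13 and 36. Chromosome 23 went the other way with 31 replicate 1-only and 13 replicate 2-only sites, as did chromosome 25 with 21 and 12. With 1 library behind each kind of site, a lasting difference between chromosomes cannot be told apart from variation between libraries.

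The peak that was missing from the second list was rarely just beside the site. A peak of the other *ctcf*-/- list lay within 100 bp of 2 single-list sites, within 1 kb of 28 (2.34%) and within 10 kb of 107 (8.92%). A replicate 2 peak lay within 10 kb of 68 replicate 1-only sites (12.3%), against 2.96% of the sites of neither list. This share was not split by local background. Another site with a peak of any *ctcf*-/- list lay within 10 kb of 50 of the 51 replicate 1-only sites of high *ctcf*-/- background. The same held for 26 of the other 502. A replicate 1 peak lay within 10 kb of 39 replicate 2-only sites (6.04%), against 3.75% of the sites of neither list. Within 1 kb, a peak of either list lay beside 0.638% of the sites of neither list. At the margin of the overlap rule, the smallest overlaps were 9 bp at chr20:54796611-54796895, 22 bp at chr24:2021246-2021483 and 36 bp at chr9:36022961-36023223, and 21 single-list sites (1.75%) overlapped by less than 100 bp. Just outside it, WT sites at chr7:39975772-39975960, chr13:36008886-36009153 and chr4:45348451-45348757 had a *ctcf*-/- peak 47, 81 and 86 bp away.

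The replicate 1-only sites strongest in WT had *ctcf*-/- peaks of 6 to 9 fragments. Positions are in the GRCz10 (danRer10) assembly, and fold enrichments are within-library values that are not scaled between libraries. The site at chr6:52326257-52326599 had a fold enrichment of 7.69 with 9 fragments at the summit in *ctcf*-/- replicate 1 and no peak in *ctcf*-/- replicate 2. It had fold enrichments of 30.5 and 30.4 with 85 and 82 fragments in WT 48 hpf replicates 1 and 2, and 30.2 and 29.8 in WT 24 hpf replicates 1 and 2. It thus belonged to the top of every WT list, with percentiles of 99.9 in both WT 48 hpf lists and 60.9 in the list of *ctcf*-/- replicate 1. The site at chr16:44495624-44495956 had 7.57 in *ctcf*-/- replicate 1, against 29.4 and 29.5 in the WT 48 hpf replicates. The site at chr19:9257315-9257689 had 5.81 with 6 fragments in *ctcf*-/- replicate 1, against 28.6 and 31.6 in the WT 48 hpf replicates. Its *ctcf*-/- peak stood at percentile 17.2 of its list, and the nearest replicate 2 peak was 662547 bp away.

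Of the replicate 2-only sites at the top of the WT lists, one had a high *ctcf*-/- peak as well. The site at chr25:3466835-3467153 had a fold enrichment of 8.45 with 10 fragments in *ctcf*-/- replicate 2, against 30.7 and 29.0 with 89 and 82 fragments in WT 48 hpf replicates 1 and 2. The site at chr19:15898199-15898555 had 6.69 with 7 fragments in *ctcf*-/- replicate 2, against 30.4 and 29.2 with 110 and 99 fragments in the WT 48 hpf replicates. Neither had a peak in *ctcf*-/- replicate 1, whose nearest peaks lay 237374 and 166329 bp away. The site at chr11:33697294-33697774 differed, with 18.8 and 28 fragments in *ctcf*-/- replicate 2, at percentile 97.2 of that list, against 29.9 and 29.1 with 95 and 104 fragments in the WT 48 hpf replicates. All 3 were listed in both WT 24 hpf libraries, with fold enrichments between 21.4 and 30.5.

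The strongest *ctcf*-/- peaks at single-list sites differed between the replicates. In replicate 2 the top site by −log10 q lay at chr19:437762-438125, with 41 fragments and a fold enrichment of 21.4 in *ctcf*-/- replicate 2, against 111 and 102 fragments and 27.3 and 24.6 in WT 48 hpf replicates 1 and 2. Next to it in rank were the chromosome 11 site above and chr16:49991130-49991513, which had 30 fragments and 18.1 in *ctcf*-/- replicate 2, against 26.1 and 24.4 in the WT 48 hpf replicates. These replicate 2-only sites were strong in WT, with WT 48 hpf percentiles from 98.2 to 99.9.

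In *ctcf*-/- replicate 1 the top sites lay in regions of raised background. The site at chr9:20174562-20174720 had 38 fragments and a fold enrichment of 11.5 at 17.8 times the genome background in *ctcf*-/- replicate 1, against 15 and 13 fragments and 7.59 and 7.07 in WT 48 hpf replicates 1 and 2. The site at chr15:14831969-14832184 had 99 fragments but a fold enrichment of 4.25 at 168 times the genome background in *ctcf*-/- replicate 1, against 95 and 58 fragments and 5.66 and 5.91 in the WT 48 hpf replicates. The site at chr8:44398268-44398507 had 65 fragments and 6.16 at 72.3 times the genome background in *ctcf*-/- replicate 1, against 49 and 34 fragments and 5.90 and 7.07 in the WT 48 hpf replicates. These 3 sites were weak in WT, with WT 48 hpf percentiles between 4.93 and 27.8, and a replicate 2 peak lay 668, 1154 and 3366 bp away from them.

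Single-list sites also lay in chromosome windows that the study examined for its developmental genes. The HoxD region of chromosome 9 contains a cluster of homeobox genes that pattern the body axis and limbs, flanked by long regulatory domains. Of its 30 WT sites, 5 were single-list sites, 3 had a peak in both *ctcf*-/- lists and 22 in neither. Over all WT sites, 5.0% were single-list sites and 3.34% had a peak in both lists. The single-list sites there were 4 in replicate 2 only and 1 in replicate 1 only.

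The HoxD single-list sites were moderately to strongly bound in WT. The site at chr9:1956586-1956911 had a fold enrichment of 7.24 with 7 fragments in *ctcf*-/- replicate 2, against 22.8 and 20.5 with 64 and 56 fragments in WT 48 hpf replicates 1 and 2. The site at chr9:2333434-2333710 had 8.25 with 9 fragments in *ctcf*-/- replicate 2, against 20.8 and 17.1 with 46 and 38 fragments in the WT 48 hpf replicates. A replicate 1 peak lay 6894 and 2898 bp from these sites. The site at chr9:1649491-1649828 had 10.5 with 12 fragments in *ctcf*-/- replicate 2, against 15.3 and 19.1 with 29 and 38 fragments in the WT 48 hpf replicates. The site at chr9:1862678-1863062 had 7.77 with 9 fragments in *ctcf*-/- replicate 2, against 13.4 and 14.5 with 30 and 32 fragments in the WT 48 hpf replicates. The one replicate 1-only site, chr9:1710342-1710608, was of the same order, with 6.60 and 8 fragments in *ctcf*-/- replicate 1, against 14.5 and 14.6 with 25 and 25 fragments in the WT 48 hpf replicates. All 5 had between 7 and 12 fragments in their *ctcf*-/- list, a range in which many sites were in only 1 of the lists.

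The other windows held fewer. On chromosome 7, 2 of 24 WT sites were single-list sites and 1 had a peak in both lists, against 5.0% and 3.34% of all WT sites. The site at chr7:37648076-37648400 had 11.6 with 15 fragments in *ctcf*-/- replicate 2, against 15.5 and 18.5 with 29 and 37 fragments in WT 48 hpf replicates 1 and 2. The site at chr7:36819208-36819823 had 7.42 with 9 fragments in *ctcf*-/- replicate 1, against 17.2 and 18.9 with 52 and 55 fragments in the WT 48 hpf replicates. The window of chromosome 2 had 1 single-list site among 19 (5.0% over all WT sites), at chr2:2800100-2800360, and none with a peak in both lists. That site was weak in WT too, with 6.23 and 7 fragments in *ctcf*-/- replicate 1, against 9.68 and 7.73 with 15 and 12 fragments in the WT 48 hpf replicates. All the sites named by position from the strongest and window rules were listed in both WT 24 hpf libraries.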

How the data were processed

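CTCF peak lists of 6 libraries were used. Per the labels and the methods, the authors aligned reads with Bowtie2 to GRCz10 (danRer10), removed distant read pairs and called peaks in each library with MACS2 at an FDR of 0.001. The use of an input control is not given in the sources used here. The deposited fold enrichment is a ratio of pileup to local background within a library, and the deposited −log10 p and −log10 q are those of the summit. None is normalized between libraries, so values were ranked within a list.

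Peaks of the WT 48 hpf replicates that overlapped were merged, and regions with a peak of each replicate were counted as sites, likewise at 24 hpf. Percentiles used the strongest peak of a site. Pileup and background were solved from fold enrichment and −log10 p, which fitted 100% of the peaks within 0.002, and another whole number fitted as well in at most 2.34% of a list. Local background is called high from 20 times the genome background upwards. Intervals are Wilson intervals at 95% and cover counting error only. The functions were tested on simulated data. Python 3.11.15, numpy 2.4.6, pandas 2.3.3, scipy 1.17.1 and matplotlib 3.10.9 were used.

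The members and lists were chosen with earlier results of these data known. Sites named by position are, for each *ctcf*-/- replicate on chromosomes 1 to 25, the 3 with the highest mean WT percentile and the 3 with the highest *ctcf*-/- −log10 q, all those in windows the study examined on chromosomes 2, 7 and 9, and the margins of the overlap rule. The chromosomes named for the balance of replicates were chosen after their values were seen. No genome or gene annotation of this build was used, so no motif, sequence or gene was assigned to sites. Alternatives were −log10 q limits, other overlap rules, the union or single replicates of WT, chromosomes 1 to 25, a shortened replicate 1 list, ranking by −log10 q and low WT background, and one more, low *ctcf*-/- background, was chosen after seeing the data.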

Additional observations from a re-analysis of the deposited data

How the results depend on the processing

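The number of single-list sites was 633 at a −log10 q of at least 10 and 665 with a reciprocal overlap of 50%, and stayed within 1.5 times of 1199 otherwise. Leaving out a *ctcf*-/- replicate removes the definition of exactly one list. The sites with a peak of the other list then numbered 1446 without replicate 1 and 1353 without replicate 2, and 1259 and 1293 single-list sites were found without WT 48 hpf replicates 1 and 2. The lead of single-list sites over sites of neither list kept its sign under every alternative run. In WT replicates 1 and 2 it was 30.1 and 29.8 points at a −log10 q of at least 10, 25.5 and 24.6 with reciprocal overlap, 36.6 and 38.4 with the union of the WT replicates, and 30.8 and 28.4 by percentile of −log10 q. In WT replicate 2 it was 27.4 with low WT background and 27.4 with low *ctcf*-/- background, and with a single WT replicate it was 36.9 (replicate 1) and 38.7 (replicate 2). The difference from sites of both lists turned round only with reciprocal overlap, to 1.41 and 0.893 in WT replicates 1 and 2, and the cause was not tested. It was −5.06 and −4.67 at a −log10 q of at least 5, −2.00 and −2.09 at 10, −6.85 and −6.05 with the union, −4.51 and −3.91 with replicate 1 shortened, and −5.91 and −6.08 by percentile of −log10 q. It was −6.56 and −6.14 with low WT background, −6.78 and −6.31 with low *ctcf*-/- background, −6.84 and −5.88 with a single WT replicate, and −4.90 in WT replicate 2 on chromosomes 1 to 25. The share with a 24 hpf site was 88.1% with reciprocal overlap, 83.1% with the union, 94.4% with low WT background and 94.6% with low *ctcf*-/- background, and it ranged from 86.3% to 99.3% when a WT replicate of either stage was left out. Sites of neither list had 73.3% with low WT background. With WT 24 hpf replicate 1 alone the share was 99.3%, against 94.1% of sites of neither list. With WT 24 hpf replicate 2 alone it was 92.0% against 75.3%. For the other alternatives no share of sites of neither list is given here. No paired analysis was possible because the results come from no test. The *ctcf*-/- lists come from the libraries of lowest genome background, and a site with no peak in one of them is one where none was detected at this depth.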
